A study of Mus musculus with 25 samples.

Results

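Genes of the kinesin and dynein transport machinery were examined in neuronal nuclei of the mouse hippocampus. Members were all genes of the deposited tables named Kif with a digit, Klc1 to Klc4, Dync, Dynl or Dctn, which gave 66 of 24411 genes. Of these, 39 encode motor heavy chains, 4 kinesin light chains, 5 dynein intermediate or light intermediate chains, 9 dynein light chains and 6 dynactin subunits. The other 3 encode no subunit and comprise the kinesin-binding protein gene Kif1bp, the antisense RNA Kif16bos and the pseudogene Kif4-ps. Dync2h1, counted with the motor heavy chains, and Dync2li1, counted with the light intermediate chains, belong to dynein-2. The other Dync genes belong to dynein-1.

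Nuclei from male mice had been sorted for the neuronal antigen NeuN and their RNA sequenced in 3 separate experiments with 25 libraries. The aging experiment held 3 libraries from young (3 months) and 2 from aged (18 months) wt mice. In the overexpression experiment, young mice had received lentivirus carrying GFP (control, 5 libraries) or Ftl1 (labelled Ftl1 OE, 7 libraries) under the synapsin-1 promoter, which is active in neurons. In the knockdown experiment, aged mice had received virus with an shRNA against luciferase (control, 4 libraries) or against Ftl1 (labelled Ftl1 KD, 4 libraries). Virus was injected into CA1 and the dentate gyrus, whereas nuclei were taken from the hippocampus, so a library may hold nuclei that the virus did not reach. All mice were of the C57BL/6 line. The labels do not tie libraries to separate mice, so p-values measure the spread between these libraries, which may be technical.

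Kinesins move cargo along microtubules, most of them toward the plus end, which in axons points away from the cell body. Kinesin-1 is built from heavy chains (Kif5a, Kif5b, Kif5c) and light chains (Klc), and the light chains bind cargo. Cytoplasmic dynein moves toward the minus end with a large heavy chain (Dync1h1), intermediate and light intermediate chains and 3 families of small light chains (Dynll, Dynlt, Dynlrb), and dynactin is its cofactor. Kinesin-13 proteins shorten microtubules, and mitotic kinesins act in dividing cells, which neurons no longer are. What is measured here is RNA in nuclei, not protein or transport.

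The targeted gene Ftl1, which encodes ferritin light chain, was not higher in libraries labelled Ftl1 OE and was higher in those labelled Ftl1 KD. Controls of the overexpression experiment averaged 11510 ± 9579 normalized counts (SD, n = 5) and libraries labelled Ftl1 OE 5968 ± 1251 (SD, n = 7), with a log2 fold change of -0.67 (adjusted p = 0.681 in limma). These groups overlapped, and the value was -0.27 without control replicate 3, which stood apart, and -0.10 without control replicates 3 and 5. Controls of the knockdown experiment averaged 43.8 ± 13.7 (SD, n = 4), and libraries labelled Ftl1 KD 118 ± 15.01 (SD, n = 4), a log2 fold change of 1.47 (adjusted p = 0.000223 in limma) without overlap of the groups. Directions below are therefore those of the labels. The libraries held 7969282 to 9537872 reads in the aging, 9943996 to 17034325 in the overexpression and 48902 to 358560 in the knockdown experiment. Because each table was normalized on its own, levels were compared within an experiment.

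Dynein light chains of the Dynlt1 family come from near-identical gene copies, and this limits what a count of a single copy means. The 4 copies lie on chromosome 17 in mm10, Dynlt1a from 6306340 to 6317500 (minus strand), Dynlt1b from 6430112 to 6436296 (plus strand), Dynlt1c from 6601671 to 6609774 (plus strand) and Dynlt1f from 6646602 to 6655900 (minus strand). Their coding sequences of 339 bases were identical except in Dynlt1b, which differed at 1 base (C21A, Dynlt1a base first, counted from the first base of the start codon). Coding bases 1 to 60 from GENCODE M21 are shown for both forms, with the differing base in capitals:
Dynlt1a: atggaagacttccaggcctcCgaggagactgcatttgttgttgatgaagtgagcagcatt
Dynlt1b: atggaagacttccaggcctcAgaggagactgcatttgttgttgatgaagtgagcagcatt
Among all windows of 75 bases in the longest transcript, the share also found in another gene was 82.6% for Dynlt1b, 51.2% for Dynlt1a, 90.6% for Dynlt1c and 89.2% for Dynlt1f. The reads of these copies cannot be fully told apart, so their sum is given beside any single copy.

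The pair of Dynll genes, which encode another light chain family that also serves as a dimerization hub for other proteins, can be told apart. Over 267 coding bases, Dynll1 (chromosome 5) and Dynll2 (chromosome 11) differed at 50 positions and were 81.3% identical. Coding bases 26 to 85 are shown with the differing bases in capitals:
Dynll1: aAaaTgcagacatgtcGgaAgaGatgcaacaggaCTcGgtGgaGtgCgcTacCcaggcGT
Dynll2: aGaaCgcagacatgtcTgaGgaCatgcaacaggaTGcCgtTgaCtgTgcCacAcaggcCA
No window of 75 bases was shared with another gene in Dynll1, Dynll2, Dynlrb1, Kif5a or the dynactin genes.

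Per kilobase of the longest coding transcript, Klc1, a kinesin-1 light chain, had the highest level of all members in young nuclei, with a normalized count per kilobase of 2073 ± 260 (SD, n = 3). Its range (1827 to 2345) lay clear of that of Kif3a, a heavy chain of the heterotrimeric kinesin-2 (1098 ± 190), which was next. Dctn5, a subunit of the dynactin pointed end (929 ± 48.9), and Dynlrb1, a roadblock light chain (753 ± 69.1), followed, and the ranges of Kif3a and Dctn5 overlapped. From Dynlrb1 through Dctn2, Dctn3, Dync1i2, Dync1i1 and Dynll1 to Kif1a (479 ± 74.9), the motor of synaptic vesicle precursors, each range overlapped that of the next gene. Among kinesin-1 heavy chains the neuronal Kif5c had 390 ± 30.1, the ubiquitous Kif5b 254 ± 31.5 and the neuronal Kif5a 230 ± 4.31 per kilobase. The ranges of Kif5b and Kif5a overlapped, whereas that of Kif5c lay above both.

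The dynein heavy chain Dync1h1 stood at 191 ± 29.0 per kilobase, below its light chain Dynlrb1. Dynll2, in place 41 of the 66 members, had 12.99 ± 7.39 per kilobase, against 548 ± 148 for Dynll1. The 11 mitotic kinesins summed to normalized counts of 92.2 to 219 in the young libraries, while the other 28 motor heavy chains summed to 24185 to 29463. Neuronal markers summed to 32300 to 44920 in the young libraries. Markers of other cell types were present beside them, at 3543 to 5138 for astrocytes, 2914 to 6565 for oligodendrocytes, 314 to 515 for microglia and 18.6 to 36.1 for endothelial cells.

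**Figure D1:**
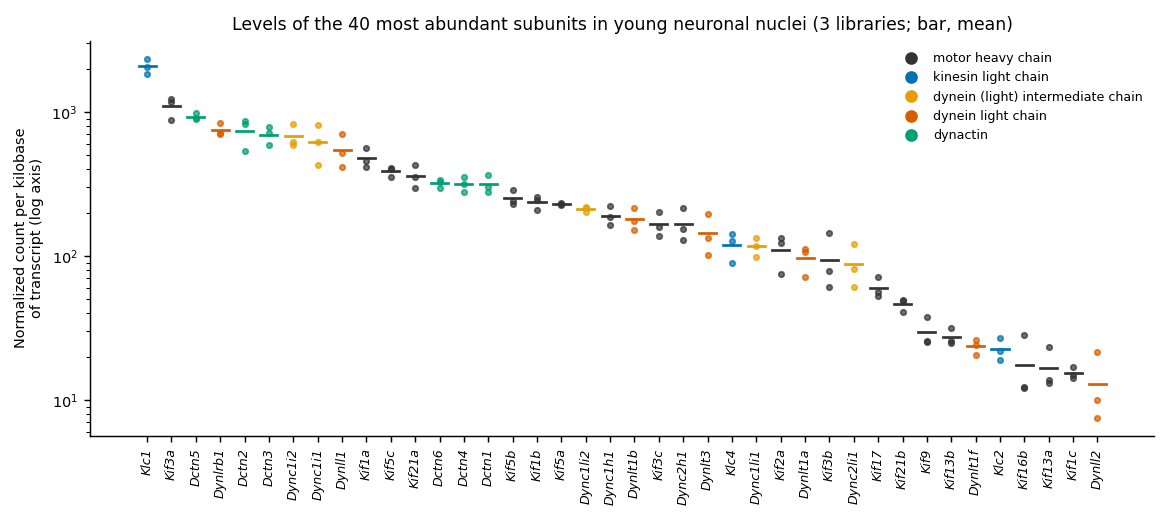
Normalized count per kilobase of transcript (log axis) of the 40 subunits with the highest means in young neuronal nuclei, with 1 point for each of 3 libraries and a bar at the mean, coloured by class. Klc1 lies clear above all others at 2073, and neighbours further down mostly overlap.

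With age, 0 of the 53 members tested passed the threshold, which was a limma adjusted p no larger than 0.05 together with a log2 fold change of 0.5 or more in size. Percent called over all 13712 genes tested was 0. DESeq2 on recovered reads called 33 genes higher (0.241%) and 105 lower (0.766%), none of them a member. An unadjusted p of 0.05 or less was reached by 1 member, against 7.94% of all genes (2.9% higher and 5.04% lower). That member was Dync1li1, a light intermediate chain that links dynein to cargo adaptors. Its normalized counts were 307, 258 and 347 in the young and 61.3 and 256 in the aged libraries. Aged replicate 2 stood far below the other 4 libraries, and aged replicate 3 lay just under the lowest young library. The log2 fold change was -1.26 (SE 0.56, adjusted p = 0.614 in limma), and it was -0.23 without aged replicate 2.

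Kif5a, in which mutations cause motor neuron disease in humans, held the tightest values of the kinesin-1 group in young nuclei. Its normalized counts were 1471, 1419 and 1458 in young and 1172 and 962 in aged libraries. Both aged libraries lay below all young ones, although the log2 fold change of -0.45 (SE 0.27) did not pass (adjusted p = 0.685 in limma). Kif5b and Kif5c stood at log2 fold changes of 0.05 and 0.03. In each library the Kif5a share of the summed kinesin-1 level per kilobase was 26.0% to 26.6% in young and 19.4% and 21.4% in aged nuclei, without overlap. The share was chosen after the values had been seen and was not tested. The smallest exact permutation p open to the aging experiment is 0.1.

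Groups of members did not overlap between ages for 11 of the 53 members, 5 higher and 6 lower, and percent called by the same criterion over all genes was 24.7. Higher in both aged libraries were Dynlrb1 (log2 fold change 0.36), Dynlt1b (0.67), Dynlt1f (0.83), Kif1bp (0.59) and Kif1c (0.79), a motor of the kinesin-3 family. Lower in both were Dync1li1, Kif5a, Dctn6 (-0.60), Dync1i2 (-0.31), Kif9 (-1.63), which is known from cilia, and Kif23, a mitotic kinesin with 4 to 25 reads in the young and 0 reads in both aged libraries. None of these passed the threshold. Genes were tested from a mean count of 10 over both groups. Kif23 cleared this limit on the mean only through the young group (17.2 on average), so its non-overlap is a description. The 4 Dynlt1 copies summed to 494 ± 92.2 (SD, n = 3) at the young and 553 ± 52.9 (SD, n = 2) at the aged time point, a log2 fold change of 0.18 (adjusted p = 0.904 in limma).

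None of the other main subunits passed with age. Klc1 had a log2 fold change of -0.19 (SE 0.28), Kif1a of 0.22 (SE 0.28), Dync1h1 of 0.26 (SE 0.31) and Dynll1 of 0.35 (SE 0.33). Dync1h1 was at 2693, 2343 and 3172 in young and at 4460 and 2365 in aged libraries, so that the aged libraries lay farther apart than the young ones, and its value was -0.20 without aged replicate 2. Klc2, another kinesin light chain, had 0.84 (SE 0.70), which was -0.20 without aged replicate 2 (264, against 60.3 to 86.1 in the other 4 libraries), and Kif3b, a partner of Kif3a in kinesin-2, had 0.58 (SE 0.38). Of the dynactin subunits, Dctn1, Dctn2, Dctn3, Dctn4 and Dctn5 lay between -0.21 and 0.12.

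By class, the median log2 fold change with age was 0.08 for 29 motor heavy chains, 0.22 for 4 kinesin light chains, -0.24 for 5 dynein intermediate and light intermediate chains, 0.35 for 8 dynein light chains and -0.01 for 6 dynactin subunits. The median of all genes tested was -0.03, with 48.3% of genes above 0. Among kinesin light chains, Klc2 (0.84) and Klc3 (0.62, SE 2.36) had positive and Klc1 (-0.19) and Klc4 (-0.22) negative values. Klc3, at 0 and 44.1 in the aged libraries, averaged 5.60 in young and cleared the limit on the mean only through the aged group. Kif14, Kif18a and Kif23 cleared it only through the young group (with Klc3, 4 of 53 tested). All 5 dynein intermediate and light intermediate chains had negative values, and 5 of 8 dynein light chains had positive ones. Among the former, Dync1i1 (-0.14, SE 0.32) was at 0.12 without aged replicate 2, and Dync1li2 (-0.15, SE 0.28) at 0.02 without aged replicate 3. These medians are descriptions without a test, and single libraries moved them, since the kinesin light chain median was -0.35 without young replicate 1, and without aged replicate 2 the motor median was -0.23 and the dynactin median -0.13. The motor median was also -0.04 without young replicate 2. Without aged replicate 2, 10 of 31 members chosen by name for all comparisons had the other sign. With the Dynlt1 copies as 1 gene, the dynein light chain median was 0.18.

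**Figure D2:**
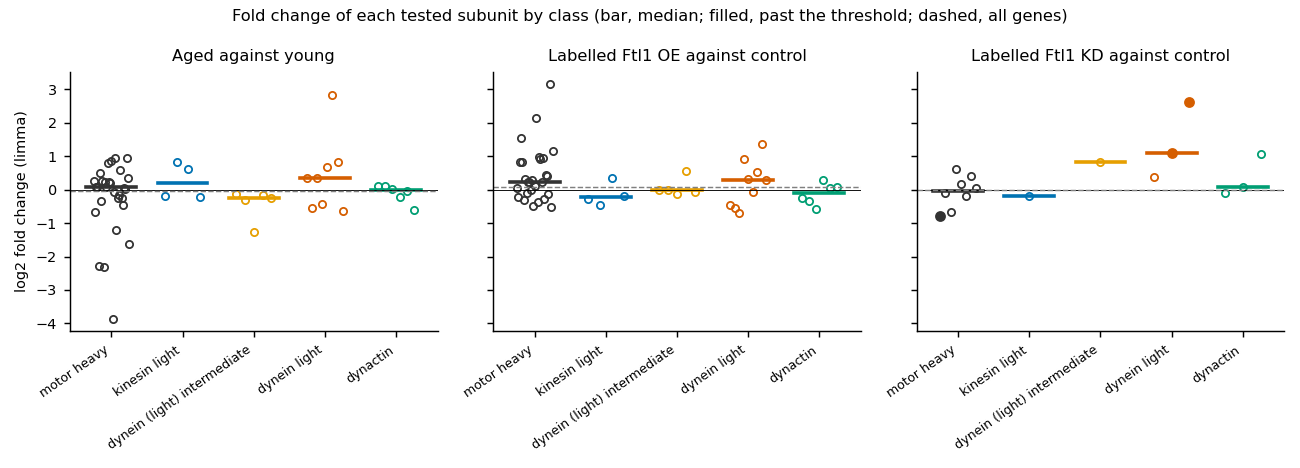
Fitted log2 fold change (limma) of every tested subunit, by class, in the aging, overexpression and knockdown experiments, with a bar at the class median, filled points past the threshold and a dashed line at the median of all genes tested. Filled points are present in the knockdown experiment alone, with Dynlt1b and Dynlrb1 above and Dync1h1 below 0.

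In the overexpression experiment, again 0 of 52 members tested passed (limma, adjusted p of 0.05 or less), with percent called at 0 over 14099 genes. DESeq2 called 8 genes higher (0.0567%) and 83 lower (0.589%), none of them a member. An unadjusted p of 0.05 or less was reached by 6 members, 3 higher and 3 lower, against 7.26% of all genes (3.6% higher and 3.66% lower). The lower ones were small subunits (Dynlrb1, Dynll1, Dctn3) and the higher ones motor heavy chains (Kif5a, Kif6, Kif24). Kif6 averaged 0.66 in control and cleared the limit on the mean only through the Ftl1 OE group (26.6), so its place in this count is a description. With control replicates 3 and 5 left out, Kif5a was the 1 member at that unadjusted p (limma).

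Control replicate 3 stood apart from the other control libraries for many members and control replicate 5 resembled it in several, so the values of the members described here are also given without them. In control replicate 3, Kif3b and Kif2a had 10 reads each (normalized count 13.5), against 368 to 603 and 169 to 424 in the other controls. Its Kif5b count of 166 compared with 507 to 1593 in the others. Klc1 reached 18539 there, against 7839 to 9364, and Dctn1, the p150 subunit of dynactin, 10064, against 3719 to 9247. Ftl1 was at 28310 in this library, against 4580 to 9953 in the other controls. Counts in genes with transcripts under 1500 bases were taken as a share of counts in genes with a known length, except the ribosomal precursor Rn45s. This share was 21.6% and 21.2% in control replicates 3 and 5, against 12.99% to 17.6% in the other controls and 12.5% to 15.95% in Ftl1 OE. This share differed between groups (18.1% ± 3.51, n = 5, against 13.99% ± 1.41, n = 7, exact two-sided permutation p = 0.0202), and its part in the results was not tested.

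Dynll1 was the member whose groups separated. Its normalized counts in control replicates 1 to 5 were 6940, 6692, 10701, 6312 and 7026, and in Ftl1 OE they ran from 4486 through a median of 5486 to 6205. Every Ftl1 OE library lay below every control library, a separation seen in 0.582% of all genes. The log2 fold change was -0.47 (SE 0.17, adjusted p = 0.592 in limma), with an exact two-sided permutation p of 0.00126 for this gene alone, the smallest that 5 libraries against 7 allow. It was -0.33 without control replicate 3 and -0.31 without control replicates 3 and 5. Dynll2 stood at -0.53 (SE 0.26, adjusted p = 0.679 in limma), and at -0.25 without control replicates 3 and 5.

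Dynlrb1 had 3031, 2044, 5542, 2865 and 5085 in control replicates 1 to 5 and 1768 to 2723 in Ftl1 OE, with a median of 2188. The highest values were those of control replicates 3 and 5, and control replicate 2 lay inside the Ftl1 OE range. The log2 fold change of -0.69 (SE 0.24, adjusted p = 0.549 in limma) was -0.28 without these 2 libraries. Dctn3, a small dynactin shoulder subunit, had 2988, 1814, 6909, 3110 and 4713 in control replicates 1 to 5 and 1998 to 2764 in Ftl1 OE. Its log2 fold change of -0.56 (SE 0.26, adjusted p = 0.672 in limma) was -0.10 without them. For both genes, control replicates 3 and 5 carried most of the difference.

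Kif5a ran the other way, and without these libraries its value was as large. Normalized counts were 2135, 2502, 2198, 2262 and 2915 in control replicates 1 to 5, and 2562 to 3952 in Ftl1 OE, with a median of 3225. Only control replicate 5 reached into the Ftl1 OE range. The log2 fold change was 0.45 (SE 0.16, adjusted p = 0.549 in limma, exact two-sided permutation p = 0.00379 for this gene alone), and it was 0.51 without control replicates 3 and 5. Kif5c stood at -0.14 and Kif5b at 0.40, and without control replicates 3 and 5 they were at -0.17 and -0.42. Kif5a took 33.7% to 48.4% of the kinesin-1 level per kilobase in control and 39.9% to 54.1% in Ftl1 OE libraries (means 39.5% ± 5.93, SD, n = 5, and 48.1% ± 5.22, SD, n = 7), which overlapped.

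**Figure D3:**
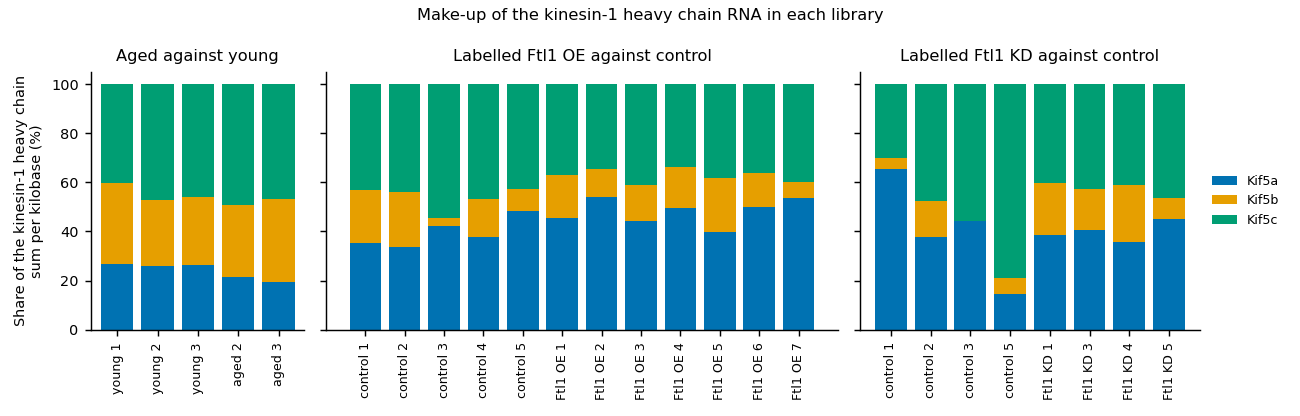
Stacked bars show the percentage of the summed kinesin-1 heavy chain level per kilobase contributed by Kif5a, Kif5b and Kif5c in each of 25 libraries of the 3 experiments. The Kif5a share is 19.4% and 21.4% in the aged libraries and 26.0% to 26.6% in the young ones, and Kif5b is smallest in overexpression control 3 (3.33%) and at 0 in knockdown control 3.

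Kif6 and Kif24 were scarce. Kif6, known from the cilia of ependymal cells, had 0 reads in 4 control libraries and 3 reads in control replicate 4, and between 0 and 84 reads in Ftl1 OE libraries, of which 2 had none. Its fitted log2 fold change of 3.17 (2.89 without control replicates 3 and 5) depends on the pseudocount. Kif24, a kinesin-13 of the centriole, had 0 to 31 reads in control and 17 to 80 reads in Ftl1 OE libraries, with a log2 fold change of 2.13 (SE 1.00, adjusted p = 0.672 in limma) that was 0.55 without control replicates 3 and 5. Ependymal and choroid plexus markers summed to 337 to 106500 in control and 268 to 56110 in Ftl1 OE libraries, and their part in these values was not tested. Dync1li2, another light intermediate chain, stood at 0.56 (SE 0.28, adjusted p = 0.681 in limma), and at 0.32 without control replicates 3 and 5.

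The class medians in this experiment were 0.24 for 27 motor heavy chains, -0.23 for 4 kinesin light chains, -0.01 for 5 dynein intermediate and light intermediate chains, 0.29 for 9 dynein light chains and -0.09 for 6 dynactin subunits. Over all genes tested the median was 0.10, with 57.4% of genes above 0. Of the motors, Kif6 and Kif23 cleared the limit on the mean only through the Ftl1 OE group and Kif19a only through control (3 of 52 tested). Without control replicate 3 the motor median was -0.04 and the dynein light chain median -0.26. Without control replicates 3 and 5, 13 of the same 31 members had the other sign, Kif3b (0.96 with all libraries, -0.14 without) among them. The dynein light chain median was also -0.24 with the Dynlt1 copies as 1 gene, and their sum stood at 669 ± 144 (SD, n = 5) in control and 696 ± 288 (SD, n = 7) in Ftl1 OE libraries. The summed count of the 9 dynein light chains, most of it Dynll1 and Dynlrb1, was 10958 to 17795 in control and 7892 to 10459 in Ftl1 OE libraries, so that these sums did not overlap.

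Most microglial and interneuron markers had lower values in Ftl1 OE libraries, although the sums of both lists overlapped between the groups. Microglial markers summed to 1689 to 4684 in control and 729 to 2010 in Ftl1 OE libraries. Of the 6, 5 were lower and 1 higher, and 4 had a lower level at an unadjusted p of 0.05 or less (limma). Interneuron markers summed to 6672 to 11390 and 4931 to 7396, with 4 of 6 lower and 2 higher, and 2 lower at that limit. Over all genes, 3.66% were lower at that limit. No marker of either list passed after adjustment. Astrocyte markers summed to 5489 to 24370 in control and 8708 to 38300 in Ftl1 OE libraries, which also overlapped. The part of all these markers in the values of the members was not tested. In such bulk samples, fewer nuclei of a type and less RNA per nucleus cannot be told apart.

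In the knockdown experiment, 3 of 16 members tested passed (limma, adjusted p of 0.05 or less), and percent called over all 1460 genes tested was 24.2, so the members' count was no larger than the background. Percent called was 10.5 for higher and 13.7 for lower genes, and 49.5% of all genes had a log2 fold change above 0. An unadjusted p of 0.05 or less was reached by the same 3 members and by 38.2% of all genes (17.5% higher and 20.7% lower). Both members that were higher were dynein light chains (Dynlt1b and Dynlrb1), and the member that was lower was the dynein heavy chain Dync1h1. Both higher members averaged under 10 in control and cleared the limit on the mean only through the Ftl1 KD group, as did Dctn3 and Kif21b (4 of 16 tested), so their direction and the count of calls are descriptions. The same 3 passed with edgeR's quasi-likelihood test (13.2% of genes higher and 15.6% lower) and with DESeq2 (11% higher and 12.9% lower). At this depth the other 50 members had mean counts below 10 and were not tested.

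Dynlt1b had normalized counts of 3.78, 0, 3.75 and 5.02 in control replicates 1, 2, 3 and 5 (4, 0, 2 and 12 reads) and of 18.2, 17.1, 36.4 and 14.7 in Ftl1 KD replicates 1, 3, 4 and 5 (19, 19, 20 and 10 reads). Every Ftl1 KD library lay above every control. The fitted log2 fold change of 2.64 (SE 0.64, adjusted p = 0.00412 in limma) ranged from 1.69 to 2.96 over pseudocounts of 5 and 0.5. With no limit on the mean, the adjusted p was 1.35e-05 (limma), and with the replicate number as a block it was 0.103. Dynlt1b shares most of its sequence with the other copies, as shown above, and Dynlt1a held 0 to 9, Dynlt1c 0 to 7 and Dynlt1f 0 to 4 reads per library. Summed over the 4 copies, the level was 7.39 ± 2.09 (SD, n = 4) in control and 28.3 ± 14.1 (SD, n = 4) in Ftl1 KD libraries. The sum, taken after the data had been seen, also averaged under 10 in control alone and includes Dynlt1b itself, so it is no separate evidence, and its fitted log2 fold change was 1.73 (SE 0.37). Without Ftl1 KD replicate 4, Dynlt1b had a mean count below 10 and was not tested.

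Dynlrb1 (chromosome 2, plus strand, 155236533 to 155250277 in mm10) had higher counts in Ftl1 KD libraries. It averaged 7.97 in control and cleared the limit on the mean only through the Ftl1 KD group (17.4), so its call is a description. Its counts were 12.3, 6.05, 9.36 and 4.18 in control and 20.1, 16.2, 12.8 and 20.6 in Ftl1 KD libraries, on 5 to 21 reads. The lowest Ftl1 KD library lay just above the highest control. The log2 fold change was 1.11 (SE 0.40, adjusted p = 0.0451 in limma). The call was lost without control replicate 2 or 5 or without Ftl1 KD replicate 1, 3 or 5 (adjusted p between 0.0842 and 0.133 in limma), with no limit on the mean (0.154), with TMM scaling (0.0544) and with the replicate number as a block (0.113).

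Dync1h1 (chromosome 12, plus strand, 110601452 to 110666945 in mm10) fell. Normalized counts were 56.6, 43.6, 28.1 and 57.3 in control and 25.9, 17.1, 32.8 and 29.4 in Ftl1 KD libraries, on 15 to 137 reads. Control replicate 3, the lowest control, lay inside the Ftl1 KD range. The log2 fold change was -0.78 (SE 0.29, adjusted p = 0.0468 in limma, exact two-sided permutation p = 0.0857). The call held without control replicate 3 or Ftl1 KD replicate 4, and was lost without control replicate 1, 2 or 5 or Ftl1 KD replicate 1, 3 or 5 (adjusted p between 0.0585 and 0.172 in limma), as well as with no limit on the mean (0.180), median centring (0.0852) and the replicate number as a block (0.0785).

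**Figure D4:**
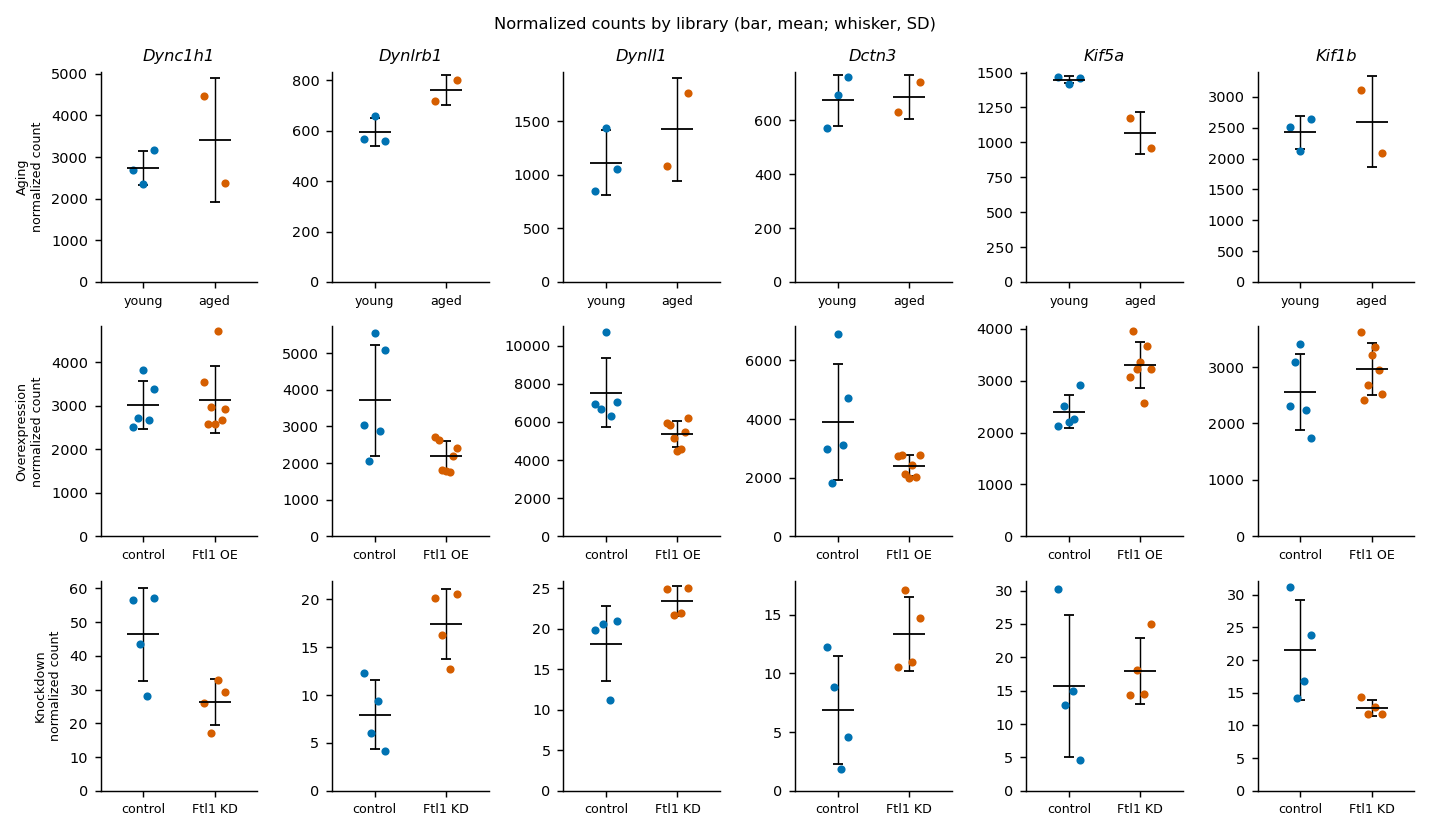
Normalized counts of Dync1h1, Dynlrb1, Dynll1, Dctn3, Kif5a and Kif1b in every library of the aging (top), overexpression (middle) and knockdown (bottom) experiments, with axes from 0, bars at the mean and whiskers of 1 SD. Dynll1 separates the groups in the overexpression experiment (4486 to 6205 below 6312 to 10701), and Dynlrb1 in the knockdown experiment (12.8 to 20.6 above 4.18 to 12.3).

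Dynll1, the third dynein light chain tested, had 19.8, 20.6, 11.2 and 20.9 in control and 24.9, 21.6, 21.9 and 24.98 in Ftl1 KD libraries. The groups did not overlap, although the log2 fold change of 0.38 (SE 0.30) did not pass (adjusted p = 0.375 in limma). Non-overlap was found for these 3 light chains among the 16 members and for 23.8% of all genes. Summed over all 9 dynein light chains, counts were 28.1 to 43.4 in control and 67.6 to 89.3 in Ftl1 KD libraries. Without the Dynlt1 copies they were 22.5 to 33.0 and 40.1 to 52.9. Summed over the 28 motor heavy chains that are not mitotic kinesins, counts were 200 to 260 in control and 180 to 188 in Ftl1 KD libraries. None of these sums overlapped between the groups. The motor sum includes Dync1h1, the member called lower, at 28.1 to 57.3 in control and 17.1 to 32.8 in Ftl1 KD libraries. Of the 8 motor heavy chains tested, 4 had positive and 4 negative values. Both light chain sums include Dynlrb1, and that of all 9 also Dynlt1b. The sums are therefore no separate evidence for their classes.

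Other subunits of dynein and dynactin gave values on either side. Dync1i1, the neuronal intermediate chain, had a log2 fold change of 0.84 (SE 0.41, adjusted p = 0.132 in limma), and it passed without control replicate 3. Dctn3 stood at 1.05 (SE 0.53, adjusted p = 0.141 in limma) on 1 to 22 reads, Dctn2 at 0.08 and Dctn1 at -0.10. Among kinesins, Kif1b, which carries mitochondria and synaptic vesicle precursors, had -0.66 (SE 0.33, adjusted p = 0.138 in limma), with 31.1, 14.1, 16.9 and 23.8 in control and 11.7 to 14.4 in Ftl1 KD libraries. Kif21b had 0.61, Kif5a 0.40, Kif3a 0.16, Kif5c 0.04, Kif1a -0.11, Kif3c -0.18 and Klc1 -0.19, none of which passed. Kif21a, whose mean of 9.92 lay just under the limit for testing, had normalized counts of 9.68 to 19.6 in control and 0 to 8.82 in Ftl1 KD libraries. Kif13b, a kinesin-3, had 5 to 11 reads in control and 0 or 1 read in Ftl1 KD libraries, and it passed where no limit on the mean was set.

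Among the members tested, class medians were -0.03 for 8 motor heavy chains, 1.11 for 3 dynein light chains and 0.08 for 3 dynactin subunits, beside -0.01 for all genes. Klc1 was the only kinesin light chain tested and Dync1i1 the only intermediate chain. The dynein light chain median rests on Dynlt1b and Dynlrb1, which cleared the limit on the mean only through the group where they were high, and is a description without a test. The 11 mitotic kinesins held 0 to 5 reads per library in all.

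Within each library, the log2 count of Dynlrb1 minus that of Dync1h1 gives the light chain relative to the heavy chain of the same motor. For the knockdown this difference was -3.49 to -1.49 in control and -1.30 to -0.07 in Ftl1 KD libraries, which did not overlap. In the overexpression experiment it was -0.41 to 0.58 in control and -1.41 to 0.03 in Ftl1 OE libraries, and in the aging experiment -2.50 to -1.83 in young and -2.63 to -1.56 in aged libraries, which overlapped. The pair was chosen after the values had been seen and was not tested.

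Several other measures moved with the groups of the knockdown experiment. The share of counts in genes with transcripts under 1500 bases was again taken over genes with a known length except Rn45s. It was 11.2% to 13.7% in control and 14.92% to 15.55% in Ftl1 KD libraries. Nuclear-retained RNAs (Malat1, Meg3, Snhg11, Neat1) summed to 600 to 1195 in control and 210 to 308 in Ftl1 KD libraries, and all 3 that were tested fell. Oligodendrocyte markers summed to 36.8 to 93.6 and 10.9 to 21.7, with both tested markers lower. The ribosomal precursor Rn45s took 31.9% to 55.3% of the counts in control and 30.3% to 34.5% in Ftl1 KD libraries. The general neuronal markers overlapped, at 232 to 329 and 253 to 323 (of 5 tested, 1 called higher and 1 called lower). Excitatory neuron markers did not overlap, at 91.8 to 136 in control and 73.5 to 81.2 in Ftl1 KD libraries (1 of 2 tested called lower). Astrocyte markers were at 22.5 to 53.8 and 46.0 to 67.6 (1 of 2 tested called higher). Interneuron markers were at 23.8 to 64.1 and 50.8 to 73.5 (of 2 tested, 1 called higher and the other lower but not called). Oligodendrocyte precursor markers were at 2.09 to 16.9 and 16.3 to 29.1 (the 1 tested was not called). Percent called over all genes tested was 24.2. The part of these measures in the values of the members was not tested.

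Dynlt1b and Dynlrb1 have short transcripts and the motor heavy chains long ones, so for these members class and length cannot be told apart. For the knockdown, the correlation across the 16 tested subunits between log2 fold change and log2 transcript length was -0.75 (Pearson) and -0.69 (Spearman). Across 1427 genes tested with a length it was -0.38 and -0.38. The 3 subunits with transcripts under 1500 bases (Dynlt1b, Dynlrb1 and Dctn3) had a median log2 fold change of 1.11, against 0.38 for all 201 genes of that length. The 8 subunits of 4000 bases or more had -0.10, against -0.57 for all 475 such genes. All 3 short subunits, and Kif21b among the long ones, averaged under 10 in control and cleared the limit on the mean only through the Ftl1 KD group. The median of the short subunits and the correlation across subunits are therefore descriptions. In the overexpression experiment the correlations were positive, 0.16 and 0.24 across 51 subunits and 0.22 and 0.27 across 13571 genes. In the aging experiment they were -0.08 and -0.04 across 52 subunits. Genes within these libraries are not independent replicates, and no p is given for these values.

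**Figure D5:**
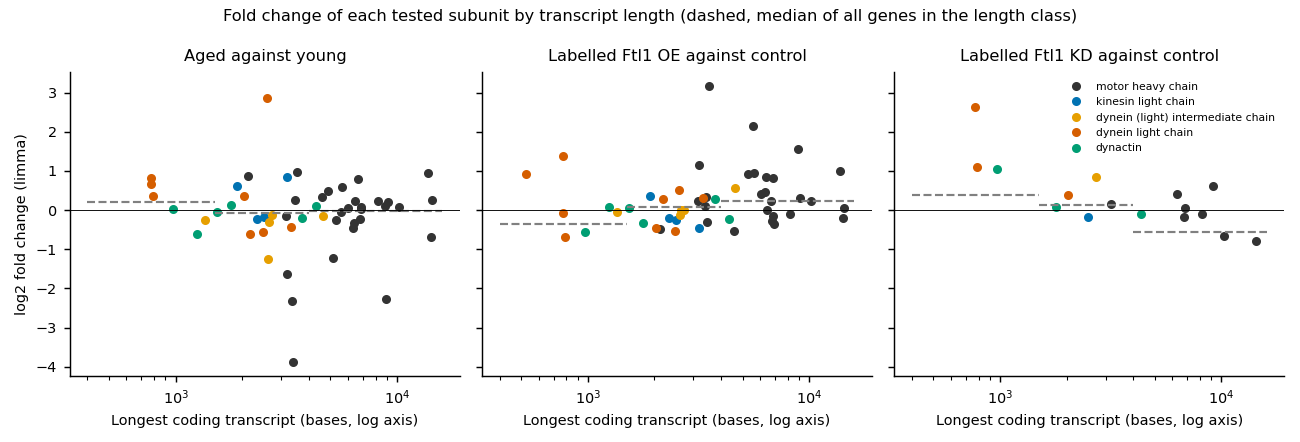
Fitted log2 fold change (limma) of each tested subunit against the length of its longest coding transcript (bases, log axis) in the 3 experiments, coloured by class, with dashed lines at the median of all genes under 1500, of 1500 to 4000 and of 4000 or more bases. In the knockdown panel the points fall from Dynlt1b and Dynlrb1 at the short end to Dync1h1 at the long end.

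Genes that work with these motors were followed as 5 lists of adaptors and regulators, microtubule-associated proteins, myosins V and VI, kinesins outside the naming rule and dynactin subunits outside it. Of their 77 genes in the tables, 0 of 75 tested passed with age and 0 of 76 passed in the overexpression experiment (limma). Of 29 tested in the knockdown experiment, 5 passed, 4 higher and 1 lower, all with an adjusted p between 0.000541 and 0.0314 in limma. Higher were the microtubule-associated proteins Mapt (log2 fold change 1.10), which is tau, Map1b (1.03) and Mapre2 (1.90), and the late endosomal GTPase Rab7 (1.14), which recruits dynein and kinesin adaptors. Lower was Trak1 (-1.49), which links kinesin-1 to mitochondria. With percent called at 24.2 over all genes, the count of the lists, like that of the motors, did not stand above the background.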

How the data were processed

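NeuN-sorted nuclear RNA of 25 libraries was sequenced. The authors aligned reads with STAR to mm10, counted them with RSEM and normalized them with DESeq2. The authors deposited 1 table per experiment, which holds for every library a normalized count (a signal, the read count divided by a size factor). The tables' other columns hold the authors' fold changes and p-values and were not used, and 0 library columns were left out. Whole reads were recovered for 100% of values (tolerance 0.01 read). Strand-specific libraries from polyA RNA are given in the labels, and a modified Smart-seq2 protocol in the methods. The methods name both lentivirus and adeno-associated virus.

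Groups were compared with limma 3.58.1 (R 4.3.3) on log2(normalized count + 1), so that fold changes are on that scale, which shrinks differences between low counts and gives single libraries near 0 much weight, with a variance trend and no covariate, for genes with a mean of at least 10, with Benjamini-Hochberg adjustment over all genes tested. Alternatives were pseudocounts of 0.5 and 5, no filter and a mean of at least 100, TMM scaling, median centring, edgeR 4.0.16 and DESeq2 1.42.0 on recovered reads, leaving out each library, and a replicate block. Summing the Dynlt1 copies and leaving out overexpression controls 3 and 5 were added after the data had been seen. The models were tested on simulated data. Transcript lengths and sequences came from GENCODE M21 (GRCm38, which is mm10), and 66 members were matched by symbol. Plots used Python 3.11.15 with matplotlib 3.10.9.

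The members and lists were chosen with earlier results of these data known. Named were 31 fixed members, every member past the threshold, up to 5 members in each direction with the smallest p in each comparison, and listed pathway genes past the threshold. Counting intervals were not needed for replicated groups, and depth limited the knockdown experiment most.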

Additional observations from a re-analysis of the deposited data

Results flagged for a closer look

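Within groups of 4 to 7 libraries, 13 of 98 combinations of a member and a group had a library set far from the rest, where chance gives about 1 in 20. Of these, 6 were overexpression control replicate 3, which was highest for Dynll1 (10701) and Klc1 (18539) and lowest for Kif2a (13.5), Kif3b (13.5), Kif13a (0) and Kif13b (0). Ftl1 OE replicate 7 was lowest for Dync1li1 (544), Dynlt3 (175) and Kif5b (364). Overexpression control replicate 2 was highest for Dync1i2 (1344), and control replicate 4 was the only control with Kif6 reads (normalized count 3.31). In the knockdown experiment, control replicate 3 was lowest for Dynll1 (11.2) and control replicate 2 lowest for Dynlt1b (0). Groups of 2 or 3 libraries were not examined in this way.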

How the results depend on the processing

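Recomputed counts and class medians stayed near the reported value (within 1.5 times for counts, 1 SD for medians) in 260 cases and moved in 11. That SD is the spread of the class mean between libraries, so a median could change sign and still count as near. In the aging and overexpression experiments the count of members was 0 in every setting. Single-gene results kept their sign and call in 176 cases and lost the call in 18. With libraries left out, overexpression medians ranged from -0.04 to 0.38 for motors and from -0.28 to 0.49 for dynein light chains. Deviations from the group mean in libraries with the same replicate number correlated at -0.05 and 0.02 in the aging and -0.05 to -0.02 in the knockdown experiment. With so few libraries per group, these values cannot decide whether the replicate numbers pair the libraries. With the number as a replicate block, 0 members passed in the knockdown experiment (Dynlt1b 1.78, adjusted p = 0.103, Dynlrb1 1.15, adjusted p = 0.113, Dync1h1 -0.91, adjusted p = 0.0785, limma), 173 genes passed in place of 354, and the kinesin light chain median with age was -0.35. Leaving out 1 library gave 1 to 4 knockdown members past the threshold (4 without control replicate 3, 1 without control replicate 2 or 5 or Ftl1 KD replicate 1, 3 or 5), and 0 in the other experiments. The medians then ranged from -0.23 to 0.20 for motors, -0.35 to 0.37 for kinesin light chains and -0.13 to 0.038 for dynactin with age, and from -0.21 to 0.051 for motors in the knockdown, where no filter gave 0.18. The number of knockdown members was 2 with no filter (Dynlt1b and Kif13b), TMM scaling (without Dynlrb1) or median centring (without Dync1h1). DESeq2 called 138 genes with age and 91 in the overexpression experiment, where limma called 0. A mean of at least 100 left 29 knockdown genes and 0 members, so it gave no value. The median of all genes was 0.10, 0.12 with TMM and 0.00 with median centring in the overexpression experiment, and -0.01, -0.07 and 0.10 in the knockdown. Depth limits the knockdown most. The causes of these changes were not tested.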
